A study of Homo sapiens with 2 samples.

Results

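Peaks centred in the last exon of a gene were described in an RNA immunoprecipitation sequencing (RIP-seq) experiment in Huh-7, an established human hepatocellular carcinoma cell line. Each deposited peak was given to the same-strand gene whose exons it overlapped most, the exons of each gene were merged, and the peak was kept where the middle of its exonic bases lay in the last merged exon of a gene with 2 or more merged exons. This took 1352 of the 7643 deposited peaks, in 924 genes. A further 5633 peaks were centred in internal exons, 548 in first exons and 110 in genes with 1 merged exon.

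The series holds 1 IP library and 1 input library, both from untreated wild-type Huh-7 cells, with 90% of the lysate used for the IP and 10% for the input. The series design names an antibody to SRSF7, and the treatment label of the IP reads SPSF7, whereas the sample protocol names an antibody to YTHDF2 and a poly(A) selection. Both cannot describe the same IP, so the protein precipitated is not named below. There was no replicate of either library. The values below are therefore descriptions of these libraries, and no test between IP and input was made.

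The last exon of most human mRNAs holds the end of the coding sequence and all or most of the 3′ untranslated region, and it ends at the cleavage and polyadenylation site. It is the stretch of an mRNA where many RNA-binding proteins and microRNAs act on stability, translation and localization. SRSF7, a splicing factor of the SR family, is known to shuttle to the cytoplasm, to take part in mRNA export and to influence the choice of polyadenylation site. YTHDF2 is a reader of N6-methyladenosine (m6A), an mRNA mark known to be dense near stop codons and in long last exons, and it promotes mRNA decay.

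Reads recovered from the gene table came to 5897293 for the IP and 2782045 for the input (medians of 20 and 8 per gene). Genes with a last-exon peak had medians of 412 IP and 117 input reads. The 8 hepatocyte lineage markers, ALB and AFP among them, were all listed and summed to 5737 RPKM (reads scaled by exonic length and library size) in the IP and 6740 in the input, and none had a last-exon peak. They did not share 1 direction: ALB, AFP, TTR and FGB were lower in the IP, and APOA1, APOB, SERPINA1 and TF were higher. The 4 erythroid markers, led by HBB, summed to 694 and 1052 RPKM, against 17.7 and 24.3 for the 4 immune markers, and none of these had a last-exon peak. The 4 cholangiocyte markers summed to 207 and 111 RPKM, and SOX9 was the 1 gene of 4 with a last-exon peak. Most of the difference between these sums was that of SOX9 (118 and 23.0 RPKM). KRT19 was at 48.6 and 35.1 RPKM, EPCAM at 39.4 and 51.9 and KRT7 at 0.636 and 0.719. Endothelial markers (2 of 3 listed) summed to 2.49 and 3.76 RPKM and fibroblast markers (2 of 3 listed) to 1.23 and 1.11, with no last-exon peak. The source of the erythroid reads was not tested.

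The strand of some of these peaks is uncertain. Of the last-exon peaks, 127 (9.39%) had bases in the last exon that lay over an exon of a gene on the opposite strand. Of all deposited peaks, 5.47% had any exonic base over such an exon. There were 75 pairs of overlapping peaks on opposite strands, 51 of which included a last-exon peak, and in 10 of those 51 pairs both peaks had the same fold and the same p. CD3EAP and ERCC1, for example, each had a peak with fold 2.38 and p = 1.9e-12 in the authors' deposited table. The gene that such a peak belongs to cannot be told apart from its partner. Without every peak that had any exonic base over an opposite-strand exon, 1224 last-exon peaks remained, with a share of 17.2%, a median fold of 2.86 and a median position at 0.261 of the exon length. A further limit was that 149 last-exon peaks lay in genes whose exons partly coincide with those of a same-strand gene, among the genes named below APOE, ATF5, IGF2, NDUFS1, NOP56, PABPN1, RABL6, SRP19, SRSF2 and ZNF445.

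Last exons held fewer of the peaks than their merged length alone would give. Of the 7533 peaks in genes with 2 or more merged exons, 17.9% were centred in the last exon (95% exact binomial interval 17.1 to 18.8, which covers the number of peaks only). Last exons made up 29.4% of the exonic bases of the same genes, weighted by their peaks, so an even spread along the exons would have placed 2211 peaks there. Both values use exons merged over all isoforms, which can be longer than those of a given mRNA. The part of this in the lower share was not tested. First exons held 7.27% of the peaks and 5.67% of the bases, and internal exons held 74.8% of the peaks. The share in last exons was 16.5% among peaks with a false discovery rate of at most 0.05 and 12.1% among those with p of at most 0.001.

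The last-exon peaks were short and mostly stayed within the exon. Their median exonic extent was 151 bases (quartiles 76 and 251, range 26 to 3995), against 176 in internal and 126 in first exons. All exonic bases of 1200 peaks (88.8%) lay in a single exon, while 152 peaks (11.2%) also reached back into an earlier exon. In internal exons, which are much shorter, 38.7% of the peaks stayed within 1 exon. The widest peak, in CHD7, a chromatin remodeller, covered 3995 bases of a last exon of 7125, with fold 2.62. Other wide peaks were those of ZNF200 with 3268 exonic bases, over an exon of an opposite-strand gene, of ARID1B with 2596 and of TSPYL2 with 2191. POLR2A, which encodes the catalytic subunit of RNA polymerase II, had a peak of 1612 exonic bases in 3 exons, 1149 of them in the last, with fold 5.77.

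Within the last merged exon, the peaks were crowded towards its 5′ end. This exon joins all isoforms and can be longer than that of a given mRNA. Read coverage along it was not measured, and the part of either in the positions was not tested. The median centre lay at 0.277 of the exon length (95% order-statistic interval 0.248 to 0.301, over peaks), at 588 bases from the exon start and 1662 bases from its end. With the exon cut into 10 equal bins, the bin at the 5′ end held 353 peaks (26.1%) and every other bin held fewer, down to 30 (2.22%) at the 3′ end. The 5′ 50% of the exon held 976 peaks, or 72.2% (69.7 to 74.6). Peaks in internal exons were centred at a median of 0.498 and peaks in first exons at 0.605. The decline was also seen in longer exons, although exon lengths can still differ between last, internal and first exons there. In exons of at least 1000 bases the median position was 0.264 for 1167 last-exon peaks, 0.480 for 1183 internal peaks and 0.531 for 160 first-exon peaks. In exons of at least 5000 bases it was 0.234 for 297 last-exon peaks, 0.435 for 168 internal peaks and 0.160 for 17 first-exon peaks, so the first-exon peaks lay nearer the 5′ end there.

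**Figure D1:**
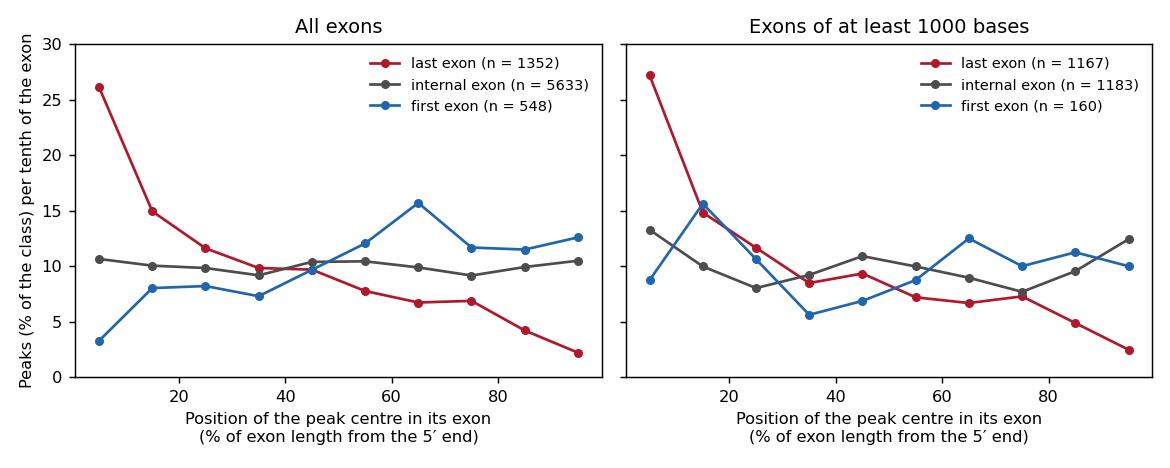
Share of peaks (% of the class) by the 10% bin of the exon that holds the peak centre, from the 5′ end, for last, internal and first exons, in all exons (left) and in exons of at least 1000 bases (right). Last-exon peaks fell from 26.1% in the bin at the 5′ end to 2.22% in that at the 3′ end, while internal peaks stayed near 10% per bin in the left panel.

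The plot of position along the exon shows a fall along nearly the whole last exon and not a single maximum in the middle. The median distance of the peaks from the exon start grew with exon length. The median relative position was 0.314 for 185 peaks in last exons under 1000 bases, 0.292 for 286 peaks at 1000 to 2000 and 0.258 for 256 peaks at 2000 to 3000. It was 0.269 for 328 peaks at 3000 to 5000, 0.229 for 237 peaks at 5000 to 10000 and 0.279 for 60 peaks at 10000 to 20000. It was thus lower in each longer class than in the shortest, with no steady order. That distance went from 183 bases in the shortest of these groups to 3737.5 bases in the longest. Seen in bases, 169 peaks were centred within 100 bases of the exon start and 10 within 100 bases of its end. Within 500 bases these counts were 606 and 197. Some of the peaks near the start were those that reach back over the last exon junction: with the peaks whose exonic bases lie wholly in the last exon, the median position was 0.329.

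The rule splits peaks at the last exon junction, and peaks on both sides of it had similar folds. There were 52 last-exon peaks centred within 25 bases of the junction, with a median fold of 2.58, and 52 peaks centred within 25 bases on the other side, in the exon before the last, with a median of 2.63. Just inside were BIN1 (fold 2.13), a membrane-bending adaptor, and MAN2B2 (fold 5.07), a lysosomal mannosidase. Just outside were SLC35A4 (fold 3.70) and NOP58 (fold 2.18), a core protein of box C/D small nucleolar ribonucleoproteins.

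Few peaks lay near the 3′ end of the exon. The 30 peaks in the 3′ 10% included that of NOP56, the NOP58 partner in the same particles, centred 45 bases from the exon end (fold 2.67). SEC61A1, the channel of the endoplasmic reticulum translocon, had 2 peaks in the 3′ 10%, the outermost 50 bases from the end (fold 3.90). PEG10, a retrotransposon-derived gene expressed in hepatocellular carcinoma, had a peak 139 bases from the end (fold 4.16), in addition to peaks near its start.

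All folds and p-values of single peaks are the authors' own, from the authors' deposited table. The deposited list holds no peak under a fold of 2 and none with p above 0.05. The median fold of IP over input was 2.86 for last-exon peaks (2.83 to 2.93), 2.65 for internal peaks (2.63 to 2.67) and 2.83 for first-exon peaks (2.73 to 2.89). A false discovery rate of at most 0.05 was reached by 749 last-exon peaks, or 55.4% (52.7 to 58.1), against 60.2% of all peaks in genes with 2 or more merged exons and 61.7% of internal peaks. A fold of at least 4 was reached by 335 last-exon peaks, or 24.8%, against 18.3% of those peaks overall and 16.6% of internal ones. The higher fold thus went with a lower share past the false discovery rate. Genes of last-exon peaks had medians of 477.5 IP and 128 input reads and genes of internal peaks 666 and 155, each counted once per peak. The part of this depth difference in the folds was not tested.

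**Figure D2:**
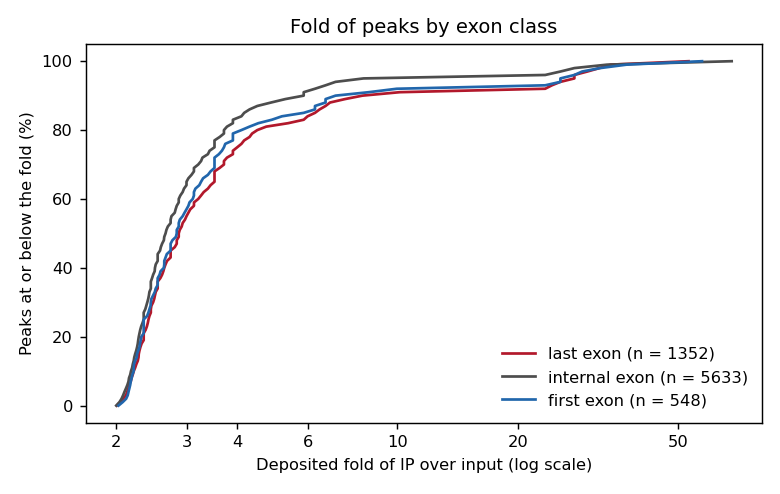
Cumulative share of peaks (%) at or below each deposited fold of IP over input (log scale) for last, internal and first exons. The curve of last-exon peaks lies to the right of that of internal peaks over most of the range, with medians of 2.86 and 2.65, and all curves have a flat stretch before the folds above 20.

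A separate group of 115 last-exon peaks (8.51%, 7.07 to 10.1) had folds above 20, against 4.07% (3.56 to 4.61) of internal peaks and 5.11% of all peaks in genes with 2 or more merged exons. The flat stretch in the plot of cumulative folds marks the gap below them. These 115 folds took only 14 values from 23.3 to 53.0, each a whole multiple of 2.12, the ratio of IP to input reads, and each fold had 1 p-value, from 0.0147 for the lowest fold to 0.00272 for the highest. Their genes had a median of 72 input reads, against 132 for the other last-exon peaks. Among all 1352 peaks there were 471 distinct pairs of fold and p, and the most frequent in the authors' deposited table (fold 3.51, p = 0.046) occurred 43 times. No source used here says how folds were scaled, so a fold above 20 is not read as stronger binding than one of 3. Without folds above 20 the median was 2.79, and with p of at most 0.001 it was 2.58 for 211 last-exon peaks, 2.42 for 1436 internal and 2.41 for 93 first-exon peaks.

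The peaks of highest fold lay in genes of varied function and level. The highest, 53.0, was that of DAPK1, a calmodulin-regulated death-associated kinase, at chr9:87703120-87706234 on the plus strand. It joined 103 bases of the last exon to the exon before it. AUTS2, a regulator of neurodevelopment, had a fold of 50.9 at chr7:70790386-70790561, also on the plus strand. ACACA, the acetyl-CoA carboxylase that commits carbon to fatty acid synthesis, RHOV, an atypical small GTPase, and SP8, a zinc finger transcription factor, each had a fold of 48.8. RHOV had 52 reads in the IP and 2 in the input over the whole gene, and ACACA had 532 and 149. The rest of the 12 were ZC3H4 (46.6), TBC1D16 (44.5), ARHGAP35 and ZBTB38 (both 42.4), HIC2 (40.3), and EIF3D and USP22 (both 36.0). ARHGAP35 is a GTPase-activating protein, HIC2 and ZBTB38 are transcriptional repressors with zinc fingers, and USP22 is the ubiquitin protease of the SAGA complex. The last exon of EIF3D, an initiation factor subunit, was only 314 bases long, and its peak covered 151 of them.

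The peaks with the smallest p were of modest fold and lay in well-covered genes. HMGB2, a chromatin protein of proliferating cells, had a peak of 101 bases at chr4:173332832-173332932 on the minus strand, with fold 2.10 and p = 6.3e-63 in the authors' deposited table. In the authors' deposited table PEG10 had a peak with fold 2.13 and p = 9.3e-61, at chr7:94663456-94663781 on the plus strand, and another with fold 2.14 and p = 7.5e-24. SOX9, the transcription factor of biliary and progenitor cells of the liver, had 1 last-exon peak at chr17:72121444-72124785 on the plus strand, with fold 4.35 and p = 2.1e-54 in the authors' deposited table. The SOX9 peak covered 1876 exonic bases in 3 exons, 1243 of them in the first part of the last exon of 2874 bases. C19orf53 had a fold of 3.07 with 225 of 301 exonic bases in its last exon. MARCKS (2.29), an actin-binding substrate of protein kinase C, KAT6A (2.79), a histone acetyltransferase, RABL6 (3.11), HSPA5 (2.93), the chaperone BiP, PAF1 (2.30), a subunit of a transcription elongation complex, and CREB3L3 (2.44), a hepatocyte transcription factor, completed this set apart from AC011462.5. The gene AC011462.5 had only 42 IP and 16 input reads, and its peak (fold 2.58) spans HNRNPUL1 on the opposite strand.

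Most genes had a single last-exon peak. There were 664 genes with 1 such peak, 171 with 2 and 89 with 3 or more, and those 89 held 346 peaks. In the median gene 8.31% of the last exon lay under peaks, and in 39 genes at least 50% did. CHST3, a chondroitin sulfotransferase, had 12 peaks, all of its peaks in the table, spread over 28.4% of a last exon of 6387 bases. Their folds ranged from 2.18 to 4.48. HIPK2, a nuclear kinase of the p53 response, had 11 last-exon peaks of 17 in all, with folds of 2.86 to 25.4, over 38.3% of a last exon of 11828 bases. ECE1, the endothelin-converting enzyme, MAVS, the mitochondrial adaptor of antiviral signalling, and PLEC, the cytolinker plectin, had 7 each. PEG10 had 6, and 15 genes had 5, among them CCDC85C, EXOC7 and MTSS2, whose last-exon peaks all lay over exons of the opposite-strand genes CCNK, ZACN and AC020763.4.

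**Figure D3:**
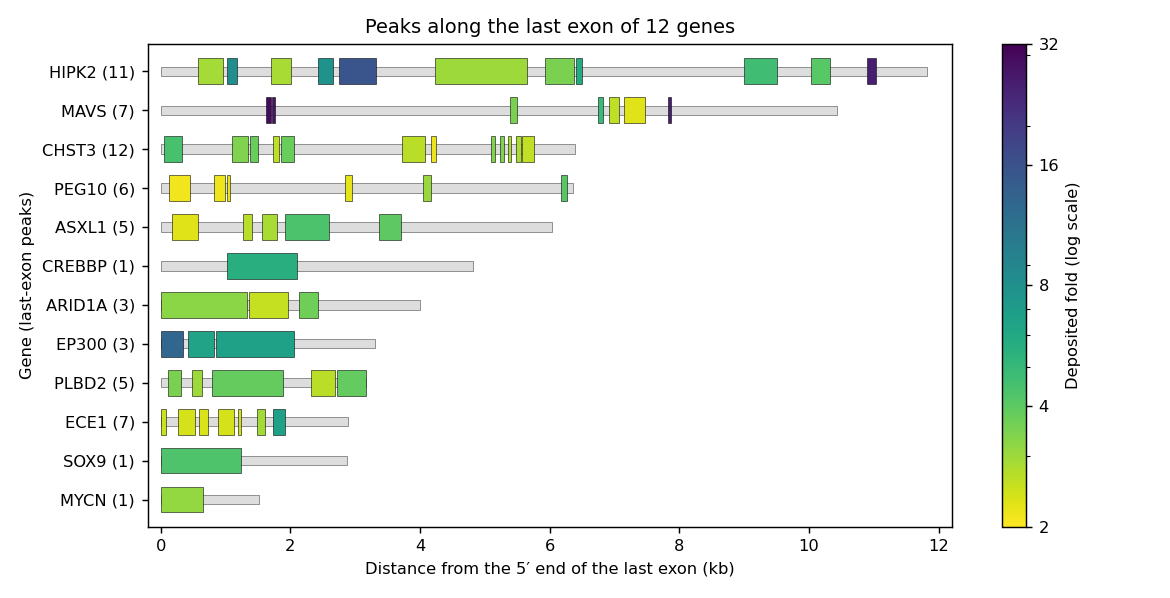
Peaks (boxes, coloured by deposited fold on a log scale) along the last exon (grey bar) of 12 genes, by distance from the 5′ end of the exon in kb, with the number of last-exon peaks after each name. CHST3 and HIPK2 carry 12 and 11 separate peaks along the exon. The single SOX9 and MYCN peaks begin in earlier exons, and only their part in the last exon is drawn, from its 5′ end.

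In the map of single exons, the peaks of ECE1, ASXL1, EP300 and SOX9 left the 3′ part of the exon bare, whereas those of PLBD2, HIPK2 and PEG10 reached close to its end. The longest last exons with a peak showed little coverage. AAK1, a clathrin adaptor kinase, had 1 peak of 76 bases (fold 29.7) in 17967, ZNF445 had 1 (fold 2.04) in 17035, and LCOR, a nuclear receptor corepressor, had 1 (fold 3.02) in 15164. EPPK1, the giant cytolinker epiplakin, had 4 peaks in 15975 bases, and TSPAN14, a tetraspanin, had 5 in 15220.

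In 418 genes (45.2%) all peaks were last-exon peaks, and the other 506 genes held 1522 peaks elsewhere as well. Among 473 genes with both last-exon and internal peaks, the median fold was higher in the last exon in 291 and lower in 182, with medians of 2.86 and 2.60 over these genes. Several of the genes with the most peaks of any kind had few or none in the last exon. AHNAK had 34 peaks and none in its last merged exon of 350 bases, HUWE1, DST, MACF1 and UBR4 had none of 21 to 25 there, and LRP1 had 3 of 25.

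Genes with a last-exon peak had long last exons and many reads. Their median last exon was 2400 bases, against 1159 for the 11887 genes with 2 or more merged exons whose 2 libraries averaged 1 RPKM or more, and 1385 for genes with peaks only elsewhere. In 42.5% of them the last exon held at least 50% of the exonic bases, against 32.3% of those 11887 genes. A last-exon peak was present in 922 of the 11887, or 7.76%, and any peak in 24.8%. By length of the last exon, the share with a last-exon peak was 1.15% under 500 bases, 9.29% at 1000 to 2000, 15.8% at 4000 to 8000 and 21.0% at 8000 or more. By IP reads of the gene it was 0.764% under 100 reads, 16.7% at 300 to 1000 and 28% at 3000 or more. Within genes of 300 to 1000 IP reads the share still ran from 3.31% for the shortest to 30% for the longest last exons.

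**Figure D4:**
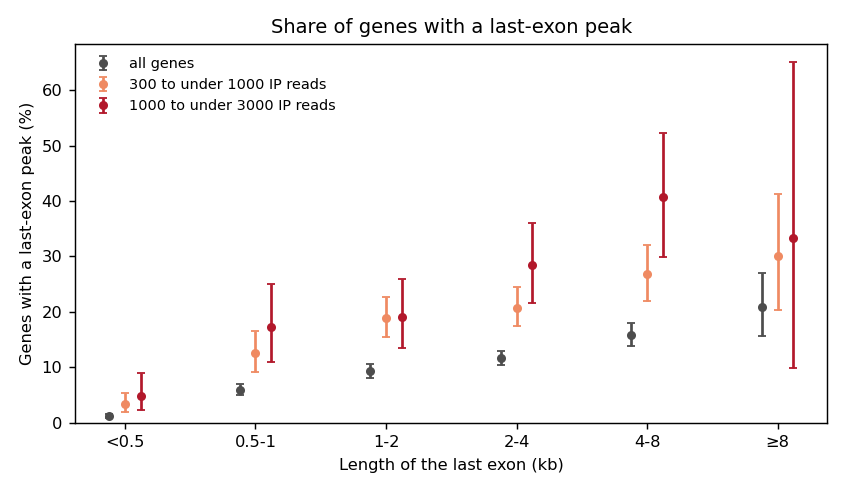
Share of genes (%) with a last-exon peak by length of the last exon (kb), for all 11887 genes and for genes of 300 to under 1000 and 1000 to under 3000 IP reads; bars are 95% exact binomial intervals. The share of all genes rose from 1.15% in the shortest to 21.0% in the longest class, and the longest class with 1000 to under 3000 reads holds only 12 genes.

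The plot of shares by exon length shows higher shares for genes of 1000 to under 3000 IP reads than for those of 300 to under 1000 in each length class, with overlapping intervals. Chromosome 19 held 154 last-exon peaks, and 107 of its 839 genes (12.8%) had one, the highest share of a chromosome. The lowest was chromosome 13 with 3.65%. Of the genes with a last-exon peak, 913 were protein-coding in RefSeq and 11 had symbols without a match there, and none of the 14 measured long non-coding RNAs of the list, 10 of them at a mean of 1 RPKM or more, had one.

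Most genes with a last-exon peak had a higher total level in the IP. This level sums the reads of a gene, and reads outside its peaks were not counted apart. On the log2(RPKM + 1) scale, which understates changes of low genes, the median difference of IP minus input was 0.79 for the 922 genes. Its 95% order-statistic interval, 0.75 to 0.83, is over genes and leaves out variation between libraries. The median difference was 0.66 for 2030 genes with peaks only elsewhere, -0.03 for 8935 genes without a peak and 0.15 for all. At least 2-fold higher in the IP were 275 of the 922, or 29.8% (26.9 to 32.9), against 9.35% of all genes and 20.8% of the genes with peaks only elsewhere. As deposited, none of the 922 was at least 2-fold lower, against 5.11% of all genes. These counts moved with the scaling: at least 2-fold higher were 187 (20.3%, against 6.12% of all genes) after centring on the median of all genes, 96 (10.4%, against 3.55%) when scaled by protein-coding reads, and 890 (96.5%, against 62.4%) with both RPKM columns set to equal sums. At least 2-fold lower were 1, 2 and 0 under these scalings. The reads under the peaks are part of these levels, so the level and the peak are not independent. The median of the genes with a last-exon peak lay above that of all genes by 0.58 to 0.75 under the scalings run. Each scaling changes all genes by a common factor or constant, so a gap was largely bound to remain, and these runs do not check it. The median of the genes with a last-exon peak ranged from 0.44, with scaling to reads in protein-coding genes, to 1.97, with scaling to the same RPKM sum.

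**Figure D5:**
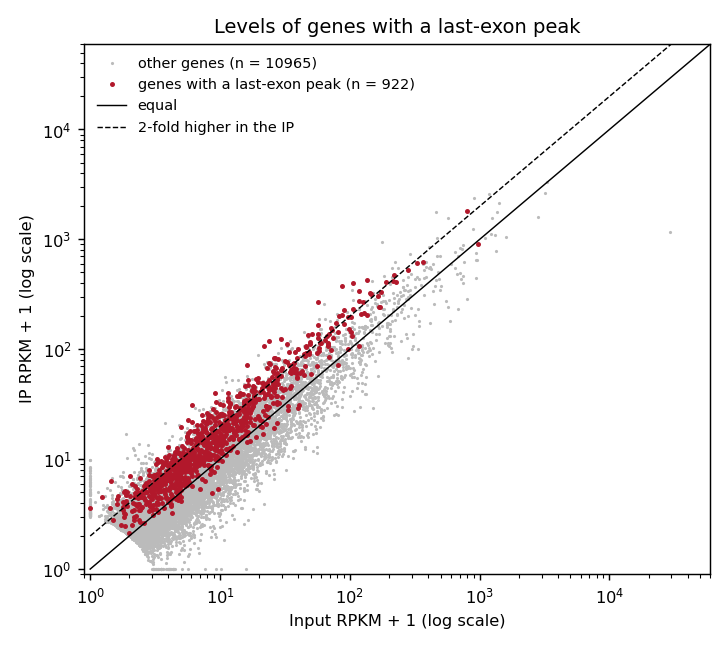
RPKM + 1 in the IP against the input (both log scales) for 11887 genes, with the 922 genes that hold a last-exon peak in red; the solid line marks equal values and the dashed line a 2-fold higher value in the IP. Of the red points, 879 lie above the solid line and 43 below it.

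The highest differences in the plot of levels were those of CREBBP (2.35 on the log2 scale), SOX9 (2.31), POLR2A (2.29) and MKI67 (2.26). SOX9 was at 118 RPKM in the IP and 23.0 in the input, a ratio of 5.13 (4.51 to 5.87, an exact interval for counting error alone). CREBBP was at 30.2 and 5.11 RPKM, a ratio of 5.91 (5.15 to 6.81). MKI67, the proliferation antigen Ki-67, was at 271 and 55.8 RPKM, a ratio of 4.85 (4.63 to 5.08). Below 0 were 43 genes, lowest SRP19 (-0.86), a signal recognition particle protein, ELMOD2 (-0.80) and PNRC2 (-0.44). IGF2, a fetal growth factor made by liver tumours, was at 913 and 977 RPKM, a ratio of 0.934 (0.917 to 0.952), and had 1 last-exon peak with fold 2.10.

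The gene lists below are counted over members with 2 or more merged exons whose 2 libraries averaged 1 RPKM or more, and no list was tested against other genes. The 7.76% of all genes set beside them is not matched for depth. By IP reads of the gene, that share was 0.764% under 100 reads and 28% at 3000 or more. Among the chromatin lists, the share with a last-exon peak varied. Of 9 histone acetyltransferases 4 had one (44.4%, 13.7 to 78.8, against 7.76% of all genes), namely CREBBP, EP300, KAT6A and KAT6B. EP300, the paralogue of CREBBP, had 3 peaks with folds of 12.9, 6.43 and 6.53 that covered 59.1% of its last exon, and CREBBP had 1 with fold 5.56 over 1076 bases. Of 29 histone methyltransferases and demethylases 7 had one (24.1%, 10.3 to 43.5), among them KDM2A with 4 peaks and KMT2D with 2, while 26 of the 29 held a peak of any kind. DOT1L, which methylates H3 lysine 79, had folds of 31.8 and 4.29, the second over an exon of PLEKHJ1 on the opposite strand. Of 17 BAF remodelling subunits 5 had one (29.4%, 10.3 to 56.0), and ARID1A, the DNA-binding subunit, had 3 over 55.8% of its last exon. In 2 of 13 nuclear receptor coregulators, MED1 (2.83) and NCOR1 (2.26), a last-exon peak was present (15.4%, 1.92 to 45.4).

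Liver and stress-response transcription factors also held such peaks. Of 27 hepatocyte transcription factors 9 had one (33.3%, 16.5 to 54.0, against 7.76% of all genes). FOXA2, a pioneer factor, had 3 with folds of 2.01 to 2.56, HNF4A had 1 with fold 2.21, RXRA, the partner of many nuclear receptors, had 2 with folds of 3.22 and 2.96, and ONECUT2 had 2 with 3.12 and 2.24. NR2F1 (2.81), ATF5 (2.86), CREB3L3 and SOX9 had 1 each. Without peaks over opposite-strand exons, 8 of 27 remained. Of 17 immediate early and stress factors 7 had one (41.2%, 18.4 to 67.1). EGR1 had a fold of 25.4 on 66 IP and 2 input reads, MYCN had 3.14, and MYC had 2 peaks with 2.43 and 2.07. ATF3 (2.34), FOSL2 (2.73), and the mRNA decay factors ZFP36L1 (2.17) and ZFP36L2 (2.34) had 1 each. Of the KRAB and other zinc finger genes 19 of 244 had one (7.79%), close to the share of all genes. Their median was 74 IP reads, and the share of all genes was 0.764% under 100 IP reads and 8.18% at 100 to 300. The part of depth in the list share was not tested. The highest folds in this list were those of ZNF592, 31.8 and 29.7, and ZNF629 had 4 peaks.

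Genes of giant proteins of the cytoskeleton had the highest share of the 21 lists, with an interval that overlaps those of most others. Of 24 at 1 RPKM or more, 12 had a last-exon peak (50%, 29.1 to 70.9, against 7.76% of all genes), with 36 peaks in all. Their median was 2332 IP reads, and the share of all genes at 1000 to 3000 IP reads was 19.8%. A peak of any kind was held by 23 of the 24, against 24.8% of all genes. The part of depth in these shares was not tested. The list median of the log2 difference was 1.25, against 0.15 for all genes. PLEC had 7 last-exon peaks, the desmosomal plaque protein DSP and the intermediate filament NES 5 each, EPPK1 4, and MAP4, PPL and SPTAN1 3 each. The highest EPPK1 fold was 7.80, while MYH9 had 1 peak of fold 2.71. The single DYNC1H1 peak lay over an exon of an opposite-strand gene, without which 11 of 24 remained.

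Lists of RNA metabolism had shares of 12% to 25%, with wide intervals, against 7.76% of all genes. Their median IP reads ran from 403 for the cleavage, polyadenylation and export factors to 3112 for the hnRNP proteins. The share of all genes was 16.7% at 300 to 1000 IP reads, 19.8% at 1000 to 3000 and 28% at 3000 or more. Of 16 SR proteins 2 had a last-exon peak (12.5%, 1.55 to 38.3), SRSF11 with fold 2.21 and SRSF2 with 2.38 and 2.27, the first of these over an exon of MFSD11 on the opposite strand. SRSF7 itself had none. Of 22 hnRNP proteins 3 had one (13.6%), HNRNPM (3.64), PTBP1 (4.29) and HNRNPUL1 with 3. Of 25 cleavage, polyadenylation and export factors 3 had one (12%), RBBP6 with 4, PABPN1 with 3 and CPSF6 with 1. Of 16 m6A writers, readers and erasers 4 had one (25%, 7.27 to 52.4), the nuclear reader YTHDC1 (2.56), IGF2BP1 (4.13 and 2.29), IGF2BP2 (2.44) and CBLL1 (2.23). Of 31 translation factors 4 had one (12.9%), EIF3B, EIF3D, EIF4B and EIF4G1.

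Genes of small abundant proteins had almost none. No last-exon peak was found in 78 cytosolic ribosomal protein genes (0%, upper bound 4.62), although their median was 1300 IP reads. Their median last exon was 726 bases and their median log2 difference -0.50. Of 74 respiratory chain genes 1 had one (1.35%, 0.0342 to 7.30), NDUFS1, a subunit of complex I, with fold 27.6 in a last exon of 9460 bases, where the list median was 430.5. The part of exon length in these shares was not tested.

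The metabolic, secretory, folding and growth lists had shares from 7.14% to 30.4%, against 7.76% of all genes. Their median IP reads ran from 310.5 for the liver cancer drivers through 1641 for the hepatocyte secreted proteins to 4832 for the chaperones. The share of all genes was 16.7% at 300 to 1000 IP reads, 19.8% at 1000 to 3000 and 28% at 3000 or more. Of 31 hepatocyte secreted proteins 4 had one (12.9%, 3.63 to 29.8): APOE had 3, with folds of 2.11 to 2.33, and the complement protein C3 (2.30), the haem carrier HPX (2.80) and ITIH2 (2.67) had 1 each. Of 23 genes of cholesterol and lipid synthesis and uptake 7 had one (30.4%, 13.2 to 52.9), among them the lanosterol synthase LSS (2.26) and SCAP (2.28), the sterol sensor that escorts SREBP. Of 20 chaperones 6 had one (30%, 11.9 to 54.3), with DNAJB1 (2.93 and 2.34), HSP90AB1 (2.46 and 2.15) and HYOU1 (2.99) beside HSPA5, HSPA9 and PDIA3. Of 28 proliferation genes 3 had one (10.7%, 2.27 to 28.2), MKI67 with folds of 8.58 and 4.87, MCM3 with 2.10 and CCND1 with 3, of which that of fold 3.19 lay over an exon of LTO1 on the opposite strand. Of 28 liver cancer driver genes 2 had one (7.14%), ARID1A and IGF2. Median last exons in the lists ranged from 430.5 bases for the respiratory chain to 3327 for the nuclear receptor coregulators, and median IP reads from 74 for the zinc finger genes to 4832 for the chaperones, and the part of both in the list shares was not tested.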

How the data were processed

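One IP and 1 input RIP-seq library of Huh-7 cells were used. The submitters' processing notes name Trimmomatic and STAR 2.5.3a; no source used here names the counter, peak caller, annotation or genome build. A molecular tag of 8 random bases is named in the series design, and whether it was used in counting is not stated. The authors deposited gene levels that behave as RPKM (reads scaled by exonic length and library size), with no unit in the header. Depth was recovered from them, since 100% were whole reads within 0.01. Among genes with 1 to 20 reads 77.3% of the counts were even in each library, so both mates of a pair may have been counted and counting intervals may be too narrow. For each peak the authors deposited a fold (ratio of IP over input), a p-value, its false discovery rate and a score, the last of which was not analysed. All 14420 protein-coding genes compared overlapped their RefSeq GRCh38.p14 positions, but no build is named, and peak positions are printed as deposited. No genome was used, so no exon sequence or stop codon position is given.

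Exons were merged per gene, a peak needed at least 1 exonic base on the gene's strand, and ties went to the gene with more IP reads. The 18 genes on several chromosomes or strands were left out. Merged exons join all isoforms, so a last merged exon can be longer than that of a given mRNA. Gene differences were log2((IP + 1)/(input + 1)) of RPKM for genes with a mean of at least 1. The assignment was checked on 3000 simulated peaks, each inside 1 exon of genes that did not overlap. Peaks across exon junctions, ties and shared exons were not part of that check. With 1 library per group no p-value was computed. The members, the 21 gene lists and the settings were chosen with earlier results of these data known. Named were the 12 peaks of highest fold among those with p up to the median, the 12 of smallest p, the 5 genes with the most last-exon peaks, the 5 longest last exons and 2 members per list; other genes in the text, such as those at the exon ends and further list members, were chosen after their values were seen. Some genes of these groups are counted but not reported here by name. Computations used scipy 1.17.1, pandas 2.3.3, numpy 2.4.6 and matplotlib 3.10.9 under Python 3.11.15.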

Additional observations from a re-analysis of the deposited data

How the results depend on the processing

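Of 67 values recomputed under other settings, 45 stayed close to the value reported and 22 moved further. Close means within the 95% interval of the reported value, or for counts of peaks at a similar count. Counts, shares, folds and positions cannot be negative, so only the log2 difference could change sign, and it did not. Asking for a minimum part of the exonic bases in the gene kept the same 1352 peaks, so those values could not move. Asking for it in the last exon nearly repeats the centre rule and took 1353 peaks. The 45 are therefore not read as a measure of robustness. With a false discovery rate of at most 0.05, there were 749 last-exon peaks, a share of 16.5% and a median log2 difference of their genes of 0.90. With a fold of at least 3 there were 599 peaks, a share of 21.5%, a median fold of 4.29 and a median position of 0.305. With peaks lying wholly in the last exon the share was 15.9% and the position 0.329, and with 1 peak per gene the position was 0.225. The median log2 difference was 0.89 with a pseudocount of 0.1, 0.84 with 0.5, 0.84 with a mean of at least 5 RPKM, 0.64 after centring on the median of all genes, 0.44 with scaling to protein-coding reads and 1.97 where both RPKM columns were set to equal sums. Settings chosen after seeing the data gave a median fold of 2.79 for folds of at most 20. With p of at most 0.001 they gave 211 peaks, a share of 12.1%, a median fold of 2.58, a position of 0.199 and a log2 difference of 1.09. Selection by p or fold takes other peaks by construction; the cause of the other moves was not tested. With 2 libraries, none could be left out. No paired analysis was possible because each group has 1 library and no value comes from a test between samples. Genes under 100 IP reads held a last-exon peak in 0.764% of cases. The part of depth in that share was not tested, and a gene without a peak is not read as unbound.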
